A study of Mus musculus with 16 samples.

Results

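The state of proliferating C2C12 myoblasts without Fam134b was compared with that of WT myoblasts, using 8 of the 16 samples of the series and 10134 of the 31053 genes in its table. C2C12 is a mouse line of skeletal muscle myoblasts that divides in serum and fuses into myotubes in culture. The 4 WT and 4 Fam134bKO samples are those whose titles give the genotype and the undifferentiated stage, and both groups were grown in DMEM with 10% FBS. The series holds 8 further samples, of WT and Fam134bKO myotubes, which serve here as a later stage at which the same genes are read. Genes entered if 4 or more of the 8 myoblast samples held a normalized count of 10 or higher. According to the study's methods, the knockout line was made with a lentiviral vector for Cas9 and a pair of guide RNAs against Fam134b. Antibiotic selection followed. The study's reagent list names 4 guides, and the methods do not say how they were combined. The methods do not say whether the line is a single clone, and they describe neither a control vector nor selection for the WT cells. The labels number the samples of each genotype as biological replicates 1 to 4, the genotype stands in the titles while a separate genotype field reads unknown, and no day in culture is given. The methods describe 1 knockout line, so the loss of Fam134b and any other property of that line cannot be told apart, and p-values measure the spread between these samples only.

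FAM134B is a membrane protein of the endoplasmic reticulum (ER) that bends ER membrane through its reticulon homology domain and binds LC3-type proteins on forming autophagosomes, so that pieces of ER are delivered to lysosomes, a process called ER-phagy. Myoblasts in growth medium keep dividing under growth factor and Notch signals while expressing the determination factors MYOD1 and MYF5, and they leave the cell cycle and start MYOG and the sarcomere genes when they differentiate. The ER also feeds a set of signals: the unfolded protein response raises chaperones, and phosphorylation of the initiation factor eIF2α raises ATF4, which turns on genes of amino acid supply together with DDIT3 and TRIB3, known as the integrated stress response.

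RNA was measured by sequencing of mRNA libraries, and the values are the authors' normalized counts, kept on a log2(value + 1) scale for the tests. Between 2755383 and 3287461 reads were counted on genes per sample. A count of 3 reads, the smallest level treated as detected, equals a normalized count of 2.49 to 3.0, and this floor covers counting error only. Log2 values of the tested genes correlated at 0.966 to 0.980 among WT samples, 0.946 to 0.983 among Fam134bKO samples and 0.877 to 0.90 between genotypes (Pearson's r across genes, which are not independent replicates). One library stood apart. Fam134bKO replicate 2 deviated from its group mean by 0.424 (root mean square, log2 scale), against 0.241 to 0.295 for the other 3 and 0.234 to 0.301 for WT, and it held 0.364% of its reads on mitochondrially encoded genes where the other 7 libraries held 0.854% to 2.05%. Without it, 3085 genes were called in place of 2481, and 94.9% of the calls made with it were made again. Counts of 3 or more called genes in a group that moved by more than 1.5 times when 1 library was left out are given with and without it. Counts of 1 or 2 called genes stayed between 0 and 4 in those fits, apart from ribosomal proteins called lower.

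Fam134b, the targeted gene, had normalized counts of 214, 251, 213 and 149.7 in WT replicates 1 to 4 and of 26.2, 24.9, 35.6 and 23.4 in Fam134bKO replicates 1 to 4. Every Fam134bKO sample lay below every WT sample, and the log2 fold change was -2.86 ± 0.19 (SE, n = 4 per genotype; limma with Benjamini-Hochberg adjustment, adjusted p = 4.77e-08; exact permutation test, two-sided, p = 0.0286, which is the lowest value that 4 against 4 samples can give). Isoforms are not separated by these counts, and the remaining 30, 30, 41 and 28 reads do not show whether a protein is made. For protein, the study showed a representative western blot in which Fam134b was absent from knockout myotubes. Of the family, Fam134a had 149, 121, 142 and 119 in WT and 149, 181, 207 and 183 in Fam134bKO. Fam134bKO replicate 1 lay within the WT range and the other 3 above it, with a log2 fold change of 0.43 ± 0.15 (limma adjusted p = 0.0457). Fam134c stayed below the filter, at 13.8, 2.89, 6.0 and 4.46 in WT and 14.9, 9.96, 14.7 and 9.18 in Fam134bKO. Both relatives were named after their values were seen. Of 33 tested genes of ER-phagy and ER shaping, 5 rose and 4 fell, and 3 rose without WT replicate 4. The shares, 15.2% higher and 12.1% lower, were near the 11.9% and 12.6% of all genes tested. Rrbp1, a ribosome-binding protein of the rough ER, rose from 299–489 to 542–793, with a log2 fold change of 0.79. The ER membrane fusion GTPase Atl3 rose by 0.46 on the log2 scale, and Reep6, which shapes ER tubules, by 1.15. Rtn2, a reticulon expressed in muscle, fell by 1.08 on the log2 scale, and Arl6ip1, an ER-shaping partner of reticulon proteins, by 0.58. The call of Fam134a was lost without WT replicate 2, 3 or 4 or Fam134bKO replicate 3 or 4 (limma adjusted p up to 0.136), in 1 model over all 16 samples and with sample weights (limma adjusted p = 0.173 and 0.0594), and that of Atl3 without WT replicate 3 or Fam134bKO replicate 4 (limma adjusted p up to 0.0558).

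Over all 10134 genes, 1205 were called higher (11.9%) and 1276 lower (12.6%) in Fam134bKO myoblasts, 24.5% in all, at an adjusted p under 0.05. At an unadjusted p under 0.05 there were 3710. The 4 samples of each genotype did not overlap in 26.6% of genes. The median log2 fold change of all genes was -0.00804, and 39 genes rose and 139 fell by at least 3 on the log2 scale. Of the 12 largest falls among genes with a mean of at least 50 in WT, 9 were in genes of muscle contraction, fusion or regulation and 1 was Mb, the oxygen-binding protein of muscle. The 12 largest increases, chosen in the same way, held genes of several functions, among them the glutamate carrier Slc1a3, the heparin-binding growth factor Ptn, the homeobox gene Rhox5, the matrix protein Prelp and the glutathione transferase Mgst1. Across 47 lists of genes written by function, 557 listed genes were called. The lists are described below by their counts and medians, to be read against the 11.9% called higher, the 12.6% called lower and the median of all genes. A member that had to be high in 1 genotype to pass the filter also had to differ, so counts of lists such as the sarcomere are not counts over all members. Among called genes, 15 had at most 3 reads in every WT library and 67 at most 3 in every Fam134bKO library. Their fitted fold changes depend on the pseudocount of 1 and are no bounds, so reads are given for those described at length.

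**Figure D1:**
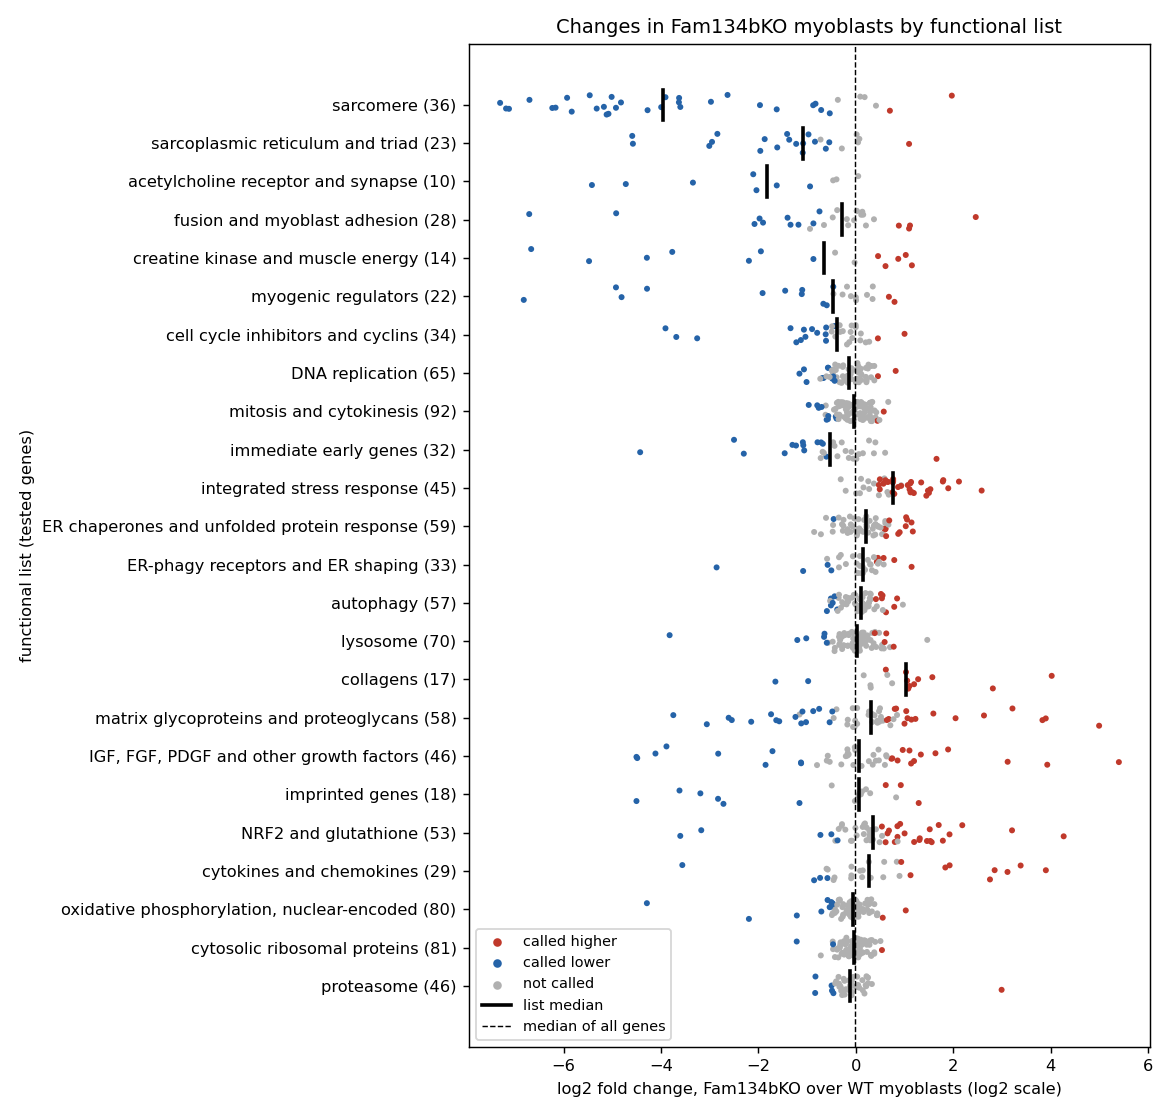
Log2 fold change of Fam134bKO against WT myoblasts (x axis, log2 scale) for each tested member of 24 functional lists (y axis), with 1 point per gene. Red points were called higher, blue points lower and grey points neither, black bars mark list medians and the dashed line marks the median of all genes, -0.00804; the sarcomere list lies far to the left, at a median of -3.95, and the integrated stress response to the right, at 0.77.

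Muscle genes were lower from the regulators to the contractile proteins. Of 22 tested myogenic regulators, 11 fell and 2 rose. Myod1, the determination factor that opens muscle enhancers, had 375, 236, 245 and 270.0 in WT and 15.7, 5.81, 6.07 and 10.8 in Fam134bKO. The genotypes were far apart, with a log2 fold change of -4.81 ± 0.27 (limma adjusted p = 7.28e-09). Myf5, the other determination factor, went the opposite way, with 76.6, 59.8, 66.0 and 82.0 in WT and 107, 114, 116 and 118 in Fam134bKO and no overlap (0.68 ± 0.15, limma adjusted p = 0.00453), a call lost in 1 model over all 16 samples (limma adjusted p = 0.0955). Pax3, which acts upstream of both in the embryo, rose from 11.6–21.2 to 24.3–33.4 (0.80 ± 0.25, limma adjusted p = 0.0282), a call lost without WT replicate 3 or 4 or Fam134bKO replicate 1 or 4 (limma adjusted p up to 0.086), with no filter on low values, and in the 16-sample model (limma adjusted p = 0.113). Myog, the differentiation factor, was 149, 105, 92.1 and 109.6 in WT and had no read in any Fam134bKO sample, at least 44.6-fold lower against a floor of 3 reads per library. Among other regulators that fell were Smyd1, a methyltransferase needed to assemble sarcomeres (-4.93), the homeobox gene Pitx3 (-4.29) and Tcf4, a partner of MYOD1 on DNA (-0.46). The call of Tcf4 was lost without Fam134bKO replicate 4 and in the 16-sample model (limma adjusted p = 0.0524 and 0.0608). Nfix was 1404 to 1893 in WT and 1876 to 2402 in Fam134bKO and was not called, although it was without Fam134bKO replicate 2 and in 4 other fits (limma adjusted p = 0.0251 and, with sample weights, 0.0194). Jdp2, at 688 to 864 and 746 to 834, was not called.

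MYOD1 and MYOG bind E-boxes, of which the letters CAGCTG and CAGGTG are the forms best known in muscle genes. The promoters of Mylpf, Tnnc2, Chrna1 and Myog are shown because these muscle transcripts fell, and they were chosen with these results known. Each is 300 bases, 250 before to 50 after the transcription start, 5′ to 3′ on the strand of the gene (RefSeq, GRCm38.p6), with CAGCTG and CAGGTG in capitals. CAGCTG reads the same on both strands, and CAGGTG on the other strand reads CACCTG:
Mylpf, chr7:127211358-127211657, plus strand: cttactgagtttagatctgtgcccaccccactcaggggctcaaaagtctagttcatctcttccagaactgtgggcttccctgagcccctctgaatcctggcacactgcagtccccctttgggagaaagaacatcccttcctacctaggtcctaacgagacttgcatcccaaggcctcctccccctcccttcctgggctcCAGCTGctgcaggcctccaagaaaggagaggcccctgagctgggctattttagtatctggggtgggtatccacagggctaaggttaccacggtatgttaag
Tnnc2, chr2:164779685-164779984, minus strand: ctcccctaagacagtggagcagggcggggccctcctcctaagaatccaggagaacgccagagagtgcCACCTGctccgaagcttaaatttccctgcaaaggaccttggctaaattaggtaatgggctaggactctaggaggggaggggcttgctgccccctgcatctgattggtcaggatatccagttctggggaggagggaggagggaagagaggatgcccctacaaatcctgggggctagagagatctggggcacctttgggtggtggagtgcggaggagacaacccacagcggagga
Chrna1, chr2:73580289-73580588, minus strand: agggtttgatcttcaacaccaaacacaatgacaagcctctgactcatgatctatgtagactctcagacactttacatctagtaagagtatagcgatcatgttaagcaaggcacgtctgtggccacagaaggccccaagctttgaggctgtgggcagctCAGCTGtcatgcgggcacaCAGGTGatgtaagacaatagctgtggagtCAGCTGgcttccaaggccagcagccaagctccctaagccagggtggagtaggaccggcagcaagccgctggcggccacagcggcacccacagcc
Myog, chr1:134289754-134290053, plus strand: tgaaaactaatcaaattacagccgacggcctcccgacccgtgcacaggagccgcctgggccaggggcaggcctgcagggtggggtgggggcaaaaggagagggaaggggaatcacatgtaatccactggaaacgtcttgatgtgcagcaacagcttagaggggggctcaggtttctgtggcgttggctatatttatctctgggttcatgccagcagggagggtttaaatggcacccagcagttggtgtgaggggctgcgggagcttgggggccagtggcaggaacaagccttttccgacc

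These windows held 1, 1, 3 and 0 matches. Only CAGCTG and CAGGTG were searched, so the 0 for Myog does not mean that its window lacks E-boxes of other letters. Motifs and promoters were chosen with the genes' values known, and each of these genes has 1 start site in the table. Of the 36 tested sarcomere genes, 31 had a promoter in the table, and 22 of these (71.0%) held CAGCTG or CAGGTG at 1 start site or more. By the same measure it was 32.5% of 7800 tested genes with a promoter and 35.9% of all 27025 genes with a promoter. No test was made of this difference, and a match describes letters, not a bound site.

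Of 36 tested sarcomere genes, 30 fell and 2 rose, with a median log2 fold change of -3.95 (-3.81 with the 1 member at 0 reads in Fam134bKO set to its bound). Another 39 of the 75 listed genes found in the table were below the filter. Mylpf, the fast regulatory myosin light chain, had 1172, 1082, 916 and 872 in WT and 3.50, 5.81, 5.21 and 7.51 in Fam134bKO (-7.31 ± 0.20, limma adjusted p = 6.41e-12). Synpo2l, a Z-disc protein, had 647, 729, 701 and 614 and 5.25, 4.15, 1.74 and 4.17 (-7.18 ± 0.23). All WT samples lay far above all Fam134bKO samples for both genes. Fast troponin C, Tnnc2, held 331, 242, 210 and 257 reads in WT and 0, 1, 2 and 1 in Fam134bKO, a ratio of summed reads of 288 (95% exact counting interval 112 to 1060.0). The giant spring protein Ttn held 223, 295, 161 and 73 and 3, 3, 3 and 0 reads. The troponins Tnni1, Tnnt1 and Tnnt3 had log2 fold changes of -6.70, -6.17 and -6.24. Skeletal and cardiac actin, Acta1 and Actc1, and embryonic myosin heavy chain, Myh3, changed by -5.17, -4.28 and -5.08 on the log2 scale. Within WT, Ttn ranged from 65.1 to 285 and Acta1 from 266 to 473, while both were low in all 4 Fam134bKO samples. The cardiac troponin Tnnt2, abundant in WT at 2604 to 2981, was still measured at 167 to 258 in Fam134bKO (-3.63). The tropomyosins behaved less uniformly: Tpm1 fell (-0.71) whereas Tpm2 was 2368 to 3122 in WT and 2684 to 3419 in Fam134bKO and was not called. The actin-nucleating protein Lmod1 of smooth muscle rose (1.97), as did the Z-disc gene Ldb3 (0.70), a call lost without WT replicate 3 or Fam134bKO replicate 1 or 3 (limma adjusted p up to 0.0641).

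Genes of the membrane systems of muscle fell as well. Of 23 tested genes of the sarcoplasmic reticulum and triad, 17 fell and 1 rose (median -1.09). The calcium pump Atp2a1, 34.8 to 66.4 in WT, was 0.830 to 1.67 in Fam134bKO (-4.58), the triad protein Jsrp1 fell by 4.59 on the log2 scale, and the calcium channel subunit Cacng1 fell by 2.95. Dysf, which reseals torn membrane, was the member that rose (1.09). At the acetylcholine receptor and synapse, 7 of 10 fell and none rose. The receptor subunit Chrna1 had 266, 251, 156 and 126 in WT and 17.5, 18.3, 23.4 and 13.3 in Fam134bKO (-3.35 ± 0.25, limma adjusted p = 1.33e-07). The MUSK activator Dok7 (-5.42) and the receptor clustering protein Rapsn (-1.62) fell too. Of 28 genes of fusion and adhesion, 10 fell and 4 rose. The fusogen Tmem8c, also known as myomaker, had 221, 140, 126 and 129 reads in WT and 0, 0, 1 and 1 in Fam134bKO, a ratio of 341 (95% exact counting interval 94.0 to 2820.0), and Gm7325, also known as myomixer, fell by 4.92 on the log2 scale. Muscle cadherin Cdh15 fell (-2.08) while Cdh11, the cadherin of mesenchymal cells, rose (2.46). Among muscle energy genes, 7 of 14 fell and 5 rose. Myoglobin, Mb, held 192, 158, 131 and 167 and 2, 0, 0 and 1 reads, the creatine kinases Ckm and Ckb changed by -5.48 and -3.77, whereas adenylate kinase Ak1 rose from 347–417 to 648–733 (0.87). In the dystrophin complex, 4 of 16 fell and 2 rose, and utrophin, Utrn, was 118 to 239.9 and 109 to 236.

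**Figure D2:**
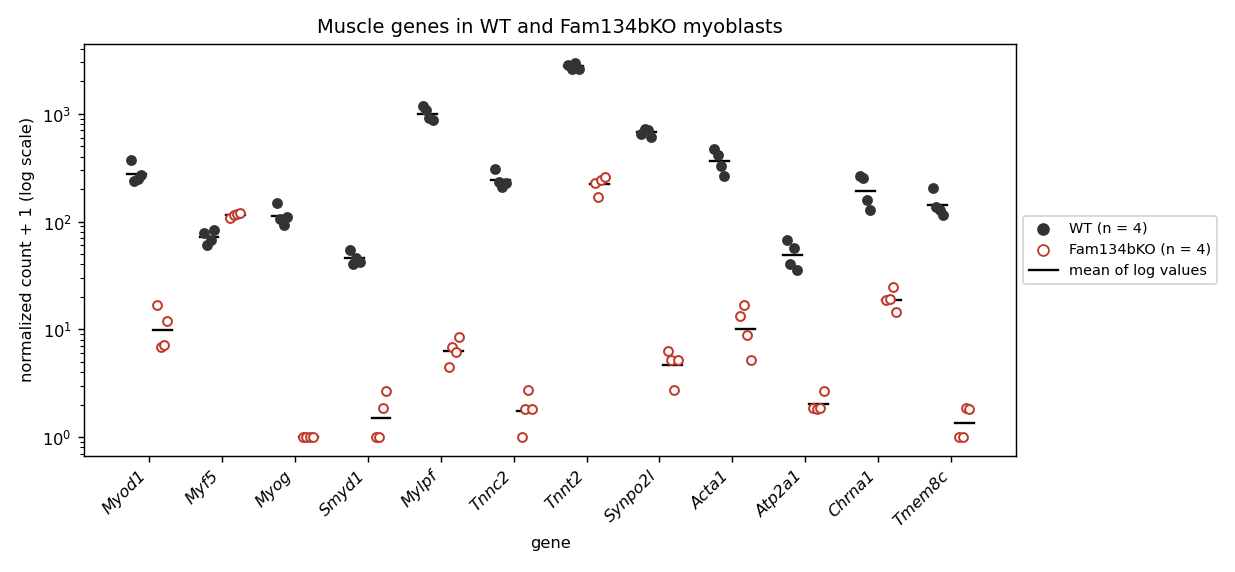
Normalized count plus 1 (y axis, log scale) of 12 muscle genes (x axis) in each sample, with WT as filled circles, Fam134bKO as open circles and the mean of the plotted log values as a bar. Myod1, Myog and the genes of contraction and fusion are separated by genotype with Fam134bKO below, Myf5 is separated with Fam134bKO above, and Myog has 0 reads in all 4 Fam134bKO samples.

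The shares of DNA replication and mitosis genes called higher, 3.08% and 2.17%, were below the 11.9% of all genes, and those called lower, 15.4% and 9.78%, lay on either side of the 12.6% of all genes. Of 65 tested DNA replication genes, 10 fell and 2 rose (median -0.14), with 7 to 15 lower and 0 to 1 higher when any 1 library was left out. Of 92 mitosis genes, 9 fell and 2 rose (median -0.0424). The mitosis genes called lower numbered 19 without Fam134bKO replicate 2, 3 without WT replicate 3 or 4 or Fam134bKO replicate 1, and 5 without WT replicate 1 or Fam134bKO replicate 3. Topoisomerase Top2a was 1640.2 to 2331 in WT and 1423 to 2028 in Fam134bKO, the replicative helicase subunit Mcm5 958 to 1239.9 and 1084 to 1278, and securin, Pttg1, 1198 to 1564 and 1098 to 2159.9. These ranges overlapped and none of these genes was called. The nucleotide-synthesis genes Rrm2 and Tyms fell (-1.01 and -0.69), as did cyclin E2, Ccne2 (-1.16), and the kinetochore gene Spc24 (-0.97). Among genes that set the decision to divide, of 34 inhibitors, cyclins and E2F genes, 14 fell and 2 rose (median -0.39). Cyclin D2, Ccnd2, had 48.0, 58.8, 48.0 and 48.1 in WT and 2.62, 1.66, 0.868 and 6.67 in Fam134bKO (-3.91 ± 0.38, limma adjusted p = 2.06e-06). Cyclin D3, Ccnd3, had 920.0, 969, 931 and 933 and 325, 398, 353 and 408 (-1.34 ± 0.12, limma adjusted p = 1.03e-06). Both were separated without overlap. Cyclin D1, Ccnd1, at 953 to 1202 and 832 to 944, did not overlap either but was not called (-0.33 ± 0.12, limma adjusted p = 0.0635). It was called lower without Fam134bKO replicate 2 (limma adjusted p = 0.0279), without WT replicate 2 and with sample weights. E2f2, a transcription factor of the G1/S step, fell (-3.26). The inhibitors p21 and p27 moved in opposite directions, with Cdkn1a at 1838, 1962, 1702 and 1634 in WT and 912, 1083, 1013 and 1105 in Fam134bKO (-0.79) and Cdkn1b rising from 69.2–97.4 to 165–188 (1.00).

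Among 42 tested genes of p53 and its targets, 15 rose and 4 fell. Perp, a membrane protein of the p53 response, held 2, 1, 1 and 1 reads in WT and 46, 48, 53 and 41 in Fam134bKO, and Ephx1 from 30.3–93.2 to 200.1–409 (2.19). The death activator Pmaip1, also known as NOXA, held 30, 31, 24 and 36 reads in WT and 0, 0, 1 and 0 in Fam134bKO. Several of the members that rose, among them Gdf15 and Sesn2, are also in the list of the integrated stress response.

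Genes of the integrated stress response rose widely. Of the list's 45 tested genes, 31 rose and none fell, with a median log2 fold change of 0.77, and 29 to 32 rose with any 1 sample left out. This was the highest share of members called higher among the 47 lists, 68.9%. Trib3, a pseudokinase induced late in the response, had 142, 138, 113 and 135 in WT and 683, 922, 757 and 830.1 in Fam134bKO (2.58 ± 0.14, limma adjusted p = 3.07e-09). Ddit3, which encodes the death-linked factor CHOP, had 335, 235, 299 and 379 and 966, 1205, 1055 and 1070.3 (1.80 ± 0.15, limma adjusted p = 4.66e-07). In both genes the lowest Fam134bKO sample was above the highest WT sample by a wide margin. The enzymes of amino acid supply rose with them. Asparagine synthetase, Asns, had 469.7, 435, 472 and 485 in WT and 1404, 1189.5, 1398 and 1297 in Fam134bKO (1.5 ± 0.12, limma adjusted p = 2.34e-07). The proline enzyme Pycr1 rose from 99.3–156 to 473–674 (2.12), and Chac1, which breaks down glutathione, from 306–388 to 852–991 (1.45). The serine enzyme Psat1, abundant in both genotypes, rose by 0.64 on the log2 scale. Among amino acid carriers, the cystine exchanger Slc7a11 (1.79), the glycine carrier Slc6a9 (1.48) and the heavy chain Slc3a2 (1.34) rose. The stress-induced leucine sensor Sesn2 rose by 1.53 and the secreted factor Gdf15, at 16, 7, 6 and 3 reads in WT and 28, 29, 41 and 30 in Fam134bKO, by 1.90. Eif4ebp1, a brake on cap-dependent translation, rose by 0.76. The mRNA of Atf4 itself was 3422 to 6550.2 in WT and 4503 to 5974 in Fam134bKO and was not called (limma adjusted p = 0.587). ATF4 is controlled largely at translation, which mRNA counts do not show. Asns, Chac1 and Sesn2 were named after their values were seen.

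ATF4 binds with C/EBP partners at the letters TGATGNAA, where N is any base. The promoters of Trib3, Pycr1, Ddit3 and Asns are shown in the same form because these genes of the list rose, and they were chosen with these results known. TGATGNAA is in capitals on either strand, as its reverse complement on the other one:
Trib3, chr2:152344011-152344310, minus strand: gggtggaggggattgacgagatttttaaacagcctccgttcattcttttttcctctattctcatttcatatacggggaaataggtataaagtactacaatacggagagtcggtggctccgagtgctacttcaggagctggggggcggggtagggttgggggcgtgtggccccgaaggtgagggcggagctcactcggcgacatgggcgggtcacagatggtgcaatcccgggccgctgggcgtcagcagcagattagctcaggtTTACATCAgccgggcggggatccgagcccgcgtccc
Pycr1, chr11:120643699-120643998, minus strand: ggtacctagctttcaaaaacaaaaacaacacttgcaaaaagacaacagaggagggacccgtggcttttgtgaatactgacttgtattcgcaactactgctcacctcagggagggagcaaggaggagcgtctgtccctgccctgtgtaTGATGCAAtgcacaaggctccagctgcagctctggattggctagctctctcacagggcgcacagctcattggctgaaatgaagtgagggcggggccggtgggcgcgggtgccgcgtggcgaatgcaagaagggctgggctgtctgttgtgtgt
Ddit3, chr10:127290543-127290842, plus strand: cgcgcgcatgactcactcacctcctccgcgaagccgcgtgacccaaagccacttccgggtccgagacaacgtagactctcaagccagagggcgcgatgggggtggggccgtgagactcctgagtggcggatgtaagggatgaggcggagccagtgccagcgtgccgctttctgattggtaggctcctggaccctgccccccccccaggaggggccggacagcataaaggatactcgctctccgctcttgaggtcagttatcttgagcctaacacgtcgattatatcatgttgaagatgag
Asns, chr6:7693160-7693459, minus strand: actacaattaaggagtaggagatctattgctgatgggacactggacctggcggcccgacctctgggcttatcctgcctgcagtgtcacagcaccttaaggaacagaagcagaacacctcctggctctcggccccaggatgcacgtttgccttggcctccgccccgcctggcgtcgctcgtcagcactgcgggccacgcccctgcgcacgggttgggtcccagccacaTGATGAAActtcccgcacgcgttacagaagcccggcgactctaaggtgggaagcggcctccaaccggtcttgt

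They held 1, 1, 0 and 1 matches, and the match of Trib3 lay after the transcription start. Of the 45 tested genes of the list, 36 had a promoter in the table, and 13 of these (36.1%) held TGATGNAA at 1 start site or more. By the same measure it was 2.50% of the 7800 tested genes and 4.51% of all 27025 genes with a promoter. This too is a description of letters without a test.

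Fewer ER chaperone genes were called. Of 59 tested ER chaperones and genes of the unfolded protein response, 12 rose and 1 fell (median 0.22). Herpud1, a gene of ER-associated degradation, had 141, 82.0, 132 and 107 in WT and 243, 189, 304 and 220.2 in Fam134bKO (1.05 ± 0.19, limma adjusted p = 0.000812). The prolyl isomerases Fkbp9 and Fkbp14 of the ER rose by 1.17 and 1.03, and the disulfide isomerases Pdia5 and P4hb by 1.14 and 0.60. The secreted stress protein Manf was the member that fell (-0.46). The calls of Manf and P4hb were each lost when any of 5 or more of the 8 libraries was left out (limma adjusted p up to 0.125 and 0.105) and in the 16-sample model (limma adjusted p = 0.39 and 0.12), that of Manf also with another scaling. The call of Pdia5 was lost without WT replicate 4 or Fam134bKO replicate 3 (limma adjusted p up to 0.0542). The main luminal chaperone Hspa5, also known as BiP, was 638, 641, 553 and 288 in WT and 543, 423, 730.5 and 355 in Fam134bKO. Its ranges overlapped, its log2 fold change was -0.03 ± 0.25, and it was not called (limma adjusted p = 0.945). Hsp90b1, at 41.0 to 122 and 48.1 to 89.2, and calnexin, Canx, at 729 to 1319 and 564 to 1661, were not called either. Hspa5 and Hsp90b1 were named after their values were seen.

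**Figure D3:**
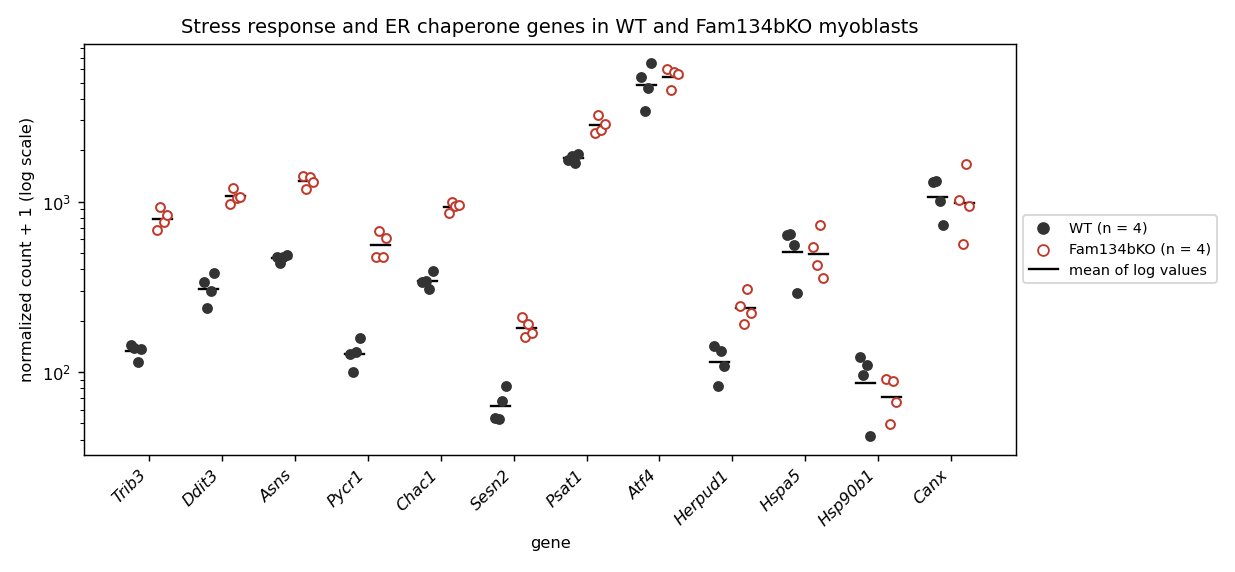
Normalized count plus 1 (y axis, log scale) of 8 genes of the integrated stress response and 4 of the ER chaperone list (x axis) in each sample, with WT as filled circles, Fam134bKO as open circles and the mean of the plotted log values as a bar. Trib3, Ddit3, Asns, Chac1, Pycr1 and Sesn2 are separated with Fam134bKO above, whereas Atf4, Hspa5, Hsp90b1 and Canx overlap.

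Autophagy genes were called in shares near those of all genes, 12.3% higher and 10.5% lower, and lysosome genes in lower shares, 5.71% and 8.57%. Of 57 autophagy genes, 7 rose and 6 fell, and of 70 lysosome genes, 4 rose and 6 fell. Autophagy genes called lower numbered 3 without WT replicate 3 or Fam134bKO replicate 1 or 3. Lysosome genes called lower numbered 3 without WT replicate 1 or 2 or Fam134bKO replicate 1, and 2 were higher without WT replicate 3. The cargo receptor Sqstm1 had 1924, 1778, 1630.2 and 1752 in WT and 2522, 2571, 2578 and 2586 in Fam134bKO (0.54 ± 0.12, limma adjusted p = 0.00424), a small rise without overlap. The ER protein Vmp1, which acts in autophagosome formation, rose by 0.85 on the log2 scale. The LC3 gene Map1lc3a fell by 0.47 and the phosphoinositide-binding protein Wipi1 by 0.59, whereas Gabarap rose by 0.41. The call of Map1lc3a was lost without WT replicate 3 or 4 or Fam134bKO replicate 1 or 3 and that of Gabarap without Fam134bKO replicate 1 (limma adjusted p up to 0.0579 and 0.0554), and both were lost in the 16-sample model (limma adjusted p = 0.0766 and 0.151). Among cathepsins, Ctsl, 218 to 504 in WT, was 143 to 203 in Fam134bKO (-1.02), and Ctsh held 24, 22, 17 and 16 reads in WT and 1, 0, 1 and 0 in Fam134bKO. Subunits of the proton pump, Atp6v0a1 (0.63) and Atp6v1b2 (0.59), rose, calls lost without WT replicate 4 and without WT replicate 3 respectively (limma adjusted p = 0.0555 and 0.0624). The lysosomal membrane protein Lamp1 was 911 to 1231 and 1063 to 1462, not called.

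Among collagens, chains of the fibrillar and type VI kinds rose. Of 17 tested collagen genes, 10 rose and 2 fell (median 1.03), and 6 rose without WT replicate 4 or without Fam134bKO replicate 1. Col6a2 had 31.4, 20.3, 27.0 and 15.2 in WT and 417, 248, 576 and 361 in Fam134bKO (4.02 ± 0.25, limma adjusted p = 2.2e-08). Its partner chain Col6a1 rose from 29.4–77.5 to 204–618 (2.81). Of the type I chains, Col1a2 had 1366, 1480.4, 1065 and 940.2 and 4153, 2365, 5419 and 2975 (1.57 ± 0.23), separated without overlap. Col1a1 had 4583, 2559.6, 2912 and 2256 and 8595, 3013, 11534 and 5481 and overlapped (1.1 ± 0.33, limma adjusted p = 0.0234), being lowest, among Fam134bKO samples, in replicate 2. In Fam134bKO these chains ran in the order of replicates 3, 1, 4 and 2, from high to low, and so did the share of reads on mitochondrially encoded genes, 2.05%, 1.56%, 1.14% and 0.364%, and the nuclear RNA Malat1, at 1588, 1322, 863 and 325 normalized counts. In WT, Malat1 was 535 to 1116 and the mitochondrial share 0.854% to 1.87%, both lowest in replicate 4. Among WT samples, Col6a2, Col1a2 and Col1a1 were lowest in replicate 4 too. The part of Malat1 level or mitochondrial share in the values of collagens or other genes, in either genotype, was not tested. Without replicate 2 the log2 fold change was 4.23 for Col6a2 and 1.77 for Col1a2. Col3a1 (1.08) and Col12a1 (1.28) rose too, whereas Col18a1, a basement membrane collagen, fell from 132–371 to 64.7–91.3 (-1.65). Matrix glycoproteins went both ways, 16 higher and 16 lower of 58. The collagen-binding proteoglycan Prelp had 3.69, 0.964, 1.00 and 1.78 in WT and 98.9, 55.6, 121 and 76.8 in Fam134bKO, a rise of 5.00. Wisp2 and Spon2 rose by 3.90 and 3.83. The abundant matrix genes Sparc and Bgn rose by 0.68 and 0.64, while fibronectin, Fn1, at 1154 to 2808 and 1504 to 4542, was not called, although it was without Fam134bKO replicate 2 (limma adjusted p = 0.0254). The calls of Col1a1 and Sparc were each lost when any of 5 of the 8 libraries was left out, and that of Col3a1 without WT replicate 4 or Fam134bKO replicate 1 (limma adjusted p up to 0.0723, 0.12 and 0.0658). That of Sparc was also lost in the 16-sample model (limma adjusted p = 0.0627). On the falling side were Lama2, the laminin chain of the muscle basement membrane (-3.06), the proteoglycan Spock2 (-3.75) and Edil3 (-2.55). Of 45 proteases, inhibitors and processing enzymes, 14 rose and 8 fell, and 9 rose without WT replicate 4. The procollagen protease Adamts2 (2.19), the proteoglycan-cleaving Adamts5 (2.15) and the collagen cross-linking enzyme Loxl2 (2.39) rose, whereas the membrane protease Mmp15 fell (-3.22). Among 12 integrins, the laminin receptor of muscle, Itga7, fell from 163–500.1 to 64.7–93.7 (-1.91) while Itgb1 was 295 to 617 and 369 to 637, not called.

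Genes of secreted growth factors were among the largest changes. Of 46 tested ligands, receptors and binding proteins, 13 rose and 9 fell. Ptn had 2.77, 4.82, 6.0 and 8.02 in WT and 331, 139, 380.0 and 250.3 in Fam134bKO (5.40 ± 0.32, limma adjusted p = 1.04e-08). Fgf7, a mesenchymal growth factor that acts on epithelia, rose from 3.86–8.30 to 86.3–128 (3.93), and Kitl, the ligand of KIT, from 13.4–22.2 to 124–188 (3.12). Igf2 and Igfbp5 belong to the IGF axis, which drives myoblast growth and differentiation. Igf2 held 34, 23, 28 and 24 reads in WT and 0, 1, 0 and 0 in Fam134bKO, a ratio of 121 (95% exact counting interval 21.2 to 4810.0). Igfbp5 had 750.2, 683, 583 and 367 in WT and 21.0, 20.8, 33.8 and 25.0 in Fam134bKO (-4.49 ± 0.22, limma adjusted p = 1.57e-09), whereas Igfbp4 rose by 1.20. Igf2bp2, an RNA-binding protein known for binding Igf2 mRNA, fell from 351–520.4 to 38.2–45.5 (-3.42). Beside Igf2 on the same imprinted stretch of chromosome lies H19, a long noncoding RNA. H19 had 43313, 39556, 41261 and 43459.6 in WT and 2941, 3951, 3322 and 3460.4 in Fam134bKO (-3.62 ± 0.16, limma adjusted p = 7.01e-10), and every Fam134bKO sample lay far below every WT sample. Of 18 tested imprinted genes, 6 fell, among them Peg3 (-1.16), Zim1 (-3.19) and Usp29 (-2.83), and 3 rose, among them Peg10 (0.92). Gnas, at 2475 to 3204 and 2224 to 3243, was not called.

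**Figure D4:**
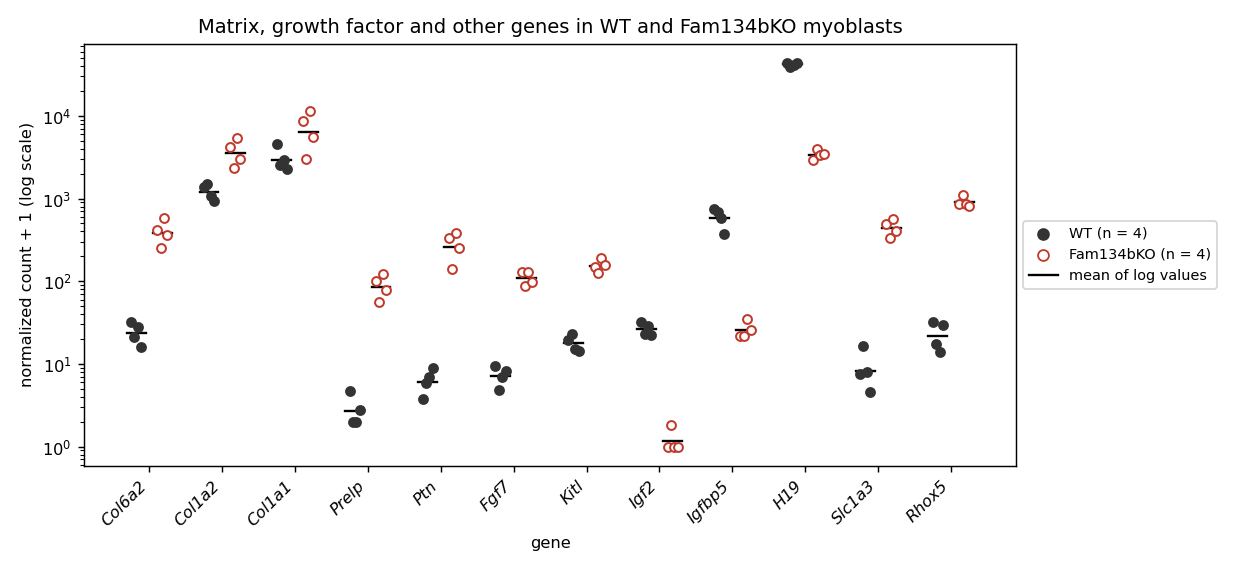
Normalized count plus 1 (y axis, log scale) of 12 genes of the matrix, of growth factors and of the largest increases (x axis) in each sample, with WT as filled circles, Fam134bKO as open circles and the mean of the plotted log values as a bar. Col6a2, Col1a2, Prelp, Ptn, Fgf7, Kitl, Slc1a3 and Rhox5 lie higher in every Fam134bKO sample, Igf2, Igfbp5 and H19 lie lower in every one, and Col1a1 overlaps.

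Genes that respond to ERK signalling fell in part. Of 32 immediate early and ERK feedback genes, 13 fell and 1 rose (median -0.54). The feedback inhibitor Spry2 had 85.8, 109.9, 83.1 and 112 in WT and 15.7, 21.6, 16.5 and 22.5 in Fam134bKO (-2.30 ± 0.20, limma adjusted p = 6.99e-07). Its relative Spry1, at 0 reads in all Fam134bKO samples and at least 8.23-fold lower, the transcription factor Egr3 (-2.50) and the ERK phosphatase Dusp5 (-1.46) fell too. Egr1, the best-known immediate early gene, was 354 to 380.3 and 299.7 to 462, not called, and Klf4 was the member that rose, from 29.5–38.6 to 103–119.9 (1.66). In the Notch pathway, 4 of 23 fell and 2 rose. The Notch target Heyl had 108, 105, 120.1 and 124 in WT and 10.5, 1.66, 13.9 and 7.51 in Fam134bKO (-3.87), the ligand Jag2 fell (-1.73), and Hes6, a gene that promotes myogenesis, fell by 1.38 on the log2 scale. Of 30 Wnt genes, 9 rose and 4 fell, and 7 fell without Fam134bKO replicate 2. The ligand Wnt4 rose from 19.3–26.0 to 110.2–129 (2.38) and the inhibitor Nkd2 from 0–3.69 to 25.7–51.6, while the ligand Wnt7b (-4.30) and the receptor Lgr6 (-3.45) fell. In the TGF-beta and BMP list, 5 of 42 rose and 8 fell, with 8 higher without Fam134bKO replicate 2, 1 without WT replicate 3, 2 without Fam134bKO replicate 1 or 3 and 3 without WT replicate 4 or Fam134bKO replicate 4. Id2, an inhibitor of bHLH factors, fell (-1.81), and its relative Id3 was 505 to 687 and 581 to 1016, not called. Among repressors of myogenic factors, Snai2 rose from 129–231 to 391–424 (1.34). Of 28 Hox and other positional genes, 6 rose and 4 fell, or 2 without WT replicate 1 or Fam134bKO replicate 3. The limb mesenchyme factors Prrx1 (1.23) and Prrx2 (0.89) rose, and Hoxc9 fell (-0.78). Of 32 YAP and SRF targets, 2 rose and 6 fell, with 4 higher without Fam134bKO replicate 2. Smooth muscle gamma-actin, Actg2, rose (1.02) and the stress-fibre gene Tagln fell (-0.84).

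Many redox genes rose. Of 53 NRF2 targets and glutathione genes, 22 rose and 5 fell (median 0.35), with 3 lower without WT replicate 1 or 4 or Fam134bKO replicate 4. The microsomal glutathione transferase Mgst1, which sits in the ER membrane, had 7.38, 16.4, 9.01 and 4.46 in WT and 171, 198, 187 and 169 in Fam134bKO (4.27 ± 0.28, limma adjusted p = 3.44e-08). The extracellular superoxide dismutase Sod3 rose from 2.77–7.01 to 40.0–62.1 (3.21) and the glutathione transferase Gstm2 from 82.0–92.1 to 320.1–352 (1.93). The antioxidant selenoenzyme Gpx3 (-3.17) and the reductase Akr1c13 (-3.61) fell, and Sod1, at 4754 to 5784 and 4664 to 5169, was not called. Of 38 genes of sugar metabolism, 4 rose and 6 fell. Both dehydrogenases of the pentose phosphate pathway, which makes NADPH, were among those that rose, Pgd by 0.80 and G6pdx by 0.68. Egln3, the oxygen sensor induced under low oxygen, fell from 198–232 to 49.8–65.9 (-1.89), and the glycolytic enzymes Aldoc and Eno2 fell (-2.64 and -1.70). Pyruvate kinase, Pkm, was 8303 to 12136 and 7588 to 8668, not called. Of 55 lipid genes, 10 rose and 8 fell, with 6 higher without WT replicate 4 and 5 lower without WT replicate 3 or Fam134bKO replicate 1 or 4. Lipoprotein lipase, Lpl, rose from 5.35–14 to 54.8–98.0 (2.99), the droplet protein Plin4 rose (2.38), and the monoglyceride lipase Mgll fell from 68.5–87.1 to 0–5.84 (-4.61). Of 32 genes of cholesterol synthesis, 3 rose and 3 fell, or 1 without WT replicate 1 or 2, and Hmgcs1 was 1033 to 1143 and 993 to 1081.

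Innate immune genes rose in part as well. Of 29 tested cytokine, chemokine and complement genes, 9 rose and 4 fell, or 2 without WT replicate 1, 2 or 3 or Fam134bKO replicate 3. The neutrophil chemokine Cxcl5 had 9.23, 15.4, 4.00 and 4.46 in WT and 59.5, 122, 76.3 and 94.3 in Fam134bKO (3.39 ± 0.35, limma adjusted p = 4.62e-06). Cxcl1 (2.85) and the complement proteases C1ra (3.12) and C1s1 (3.90) rose with it. The NF-kappaB subunit Rela, at 279.6 to 312 and 239.7 to 315, was not called. Of 38 interferon and antigen presentation genes, 9 rose and 2 fell. The immunoproteasome subunit Psmb8 rose from 0.964–4.61 to 18.3–39.9 (3.0), the interferon-induced GTPase Ifi47 fell (-1.23), and the abundant Ifitm3, at 3659 to 5239 and 4967 to 5772, was not called.

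Few genes of protein synthesis, protein breakdown and respiration were called with all 8 samples. Called genes numbered 1 higher and 2 lower of 81 ribosomal protein genes, 1 and 9 of 91 for ribosome biogenesis, 1 and 5 of 46 for the proteasome, and 2 and 9 of 80 for nuclear-encoded oxidative phosphorylation. Of 9 mitochondrially encoded genes none was called. These counts moved when Fam134bKO replicate 2 was left out. Without Fam134bKO replicate 2, 12 ribosomal protein, 15 ribosome biogenesis, 12 proteasome and 20 oxidative phosphorylation genes were called lower, and 4 of the last higher. Without other libraries the lower calls also moved, for ribosome biogenesis to 2 without WT replicate 3, 4 without Fam134bKO replicate 1 and 5 without Fam134bKO replicate 3 or 4, and for the proteasome to 3 without WT replicate 1, 3 or 4 or Fam134bKO replicate 1 or 3. Ndufs6, a subunit of complex I, fell with all samples, from 1202–1926 to 580.4–770.0 (-1.21), and Rpl22l1, a ribosomal protein paralog, fell by 1.21 on the log2 scale. Of the muscle isoforms of cytochrome oxidase, Cox7a1 fell (-2.20) and Cox8b, at 0 reads in all Fam134bKO samples, was at least 7.37-fold lower, and Cox4i1, at 2891 to 4899 and 3651 to 4950.0, was not called. Among heat shock proteins, 9 of 42 fell and 2 rose, with 3 or 4 lower without WT replicate 3 or Fam134bKO replicate 1 or 4. The cytosolic chaperones Hspa4l (-1.74) and Hsp90aa1 (-0.72) fell, and the mitochondrial chaperone Hspa9 rose (0.53). The call of Hsp90aa1 was lost in the 16-sample model (limma adjusted p = 0.0571) and that of Hspa9 without WT replicate 3 or 4 (limma adjusted p up to 0.0544).

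Among structural and excitable genes, 9 of 70 cytoskeletal genes rose and 16 fell. Desmin, Des, the intermediate filament of muscle, had 674, 469.7, 483 and 438 in WT and 169.7, 101, 145 and 112 in Fam134bKO (-1.97 ± 0.18, limma adjusted p = 1.3e-06), and nestin, Nes, fell by 0.94 on the log2 scale, while vimentin, Vim, rose (0.60), a call lost without any library but Fam134bKO replicate 2 (limma adjusted p up to 0.109), and in 3 other fits. The actin-severing protein Gsn rose by 1.21. Of 29 ion channel genes, 7 fell and 3 rose. Axon guidance genes went both ways, 6 higher and 7 lower of 36, with Epha7 higher (2.30) and Robo2 and Sema6a lower (-3.67 and -3.56). Of 33 regulators of splicing and mRNA, 4 rose and 6 fell, among them Celf2 (-1.70) and Khdrbs3 (-1.57), whereas the muscleblind gene Mbnl1, at 1519 to 1660.3 and 1713 to 1855, was not called.

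The largest increases included genes known from other tissues. Slc1a3 had 6.46, 15.4, 7.01 and 3.56 in WT and 486, 330.4, 570.0 and 405 in Fam134bKO, the largest increase by the rule for naming genes (5.75 ± 0.31, limma adjusted p = 3.69e-09). Rhox5, a homeobox gene of testis and placenta, had 31.4, 16.4, 13.0 and 28.5 and 848, 1116, 852 and 813 (5.36 ± 0.23, limma adjusted p = 7.01e-10). The transcription regulator Aff3 held 0, 0, 1 and 0 reads in WT and 73, 32, 76 and 80 in Fam134bKO, a ratio of 236 (95% exact counting interval 41.9 to 9340.0). In all 3 the lowest Fam134bKO sample was well above the highest WT sample. Rhox5 and Aff3 were in a list of 55 genes written as germline and placental. Its place there does not make Aff3 a germline or placental gene. Of the 55, 33 had no read in any of the 8 samples and 3 passed the filter, the last being Xlr3a, which fell (-2.65). Further large increases were Cdsn, a cell adhesion protein of skin (4.22), and Nkx2-5, a homeobox factor of heart muscle (3.91), and further large falls were the prostacyclin synthase Ptgis, at 127, 109, 106 and 85 reads in WT and 1, 0, 0 and 0 in Fam134bKO, and Frmpd1, at 175, 121, 116 and 121 and 2, 0, 2 and 0. Krt14, Vdr and Sox11 were named after their values were seen. Krt14, a keratin of basal epithelium, rose from 111–156 to 1045–1173 (3.01), the surface protein Ly6a from 41.9–59.1 to 447–851 (3.75) and the vitamin D receptor Vdr from 85.8–113 to 443–575 (2.34), while the transcription factor Sox11 fell from 656–752 to 49.0–71.1 (-3.64).

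Markers of other cell types were summed in each sample. In a bulk sample, fewer cells that express a gene and less RNA per cell cannot be told apart. The 10 muscle lineage markers summed to 1797 to 2818 in WT and 568 to 682 in Fam134bKO, and the 10 myotube markers to 1801 to 2801 and 17.5 to 25.7. The WT samples labelled undifferentiated held transcripts of differentiated muscle, and Fam134bKO samples were near the floor for them. Whether a share of differentiating cells among the WT myoblasts has a part in these differences was not tested. Of 10 fibroblast markers, 3 rose (Col1a1, Col3a1 and Ly6a) and Cd34 fell from 32.0–56.3 to 2.50–5.21. The summed fibroblast level was 2754 to 5628 in WT and 4169.7 to 14835 in Fam134bKO. Of the 10 markers, 6 reached 3 reads in a WT library and 7 in a Fam134bKO library. Tcf21, Thy1 and Lum reached 3 reads in neither genotype and were at or below 0.875 in Fam134bKO. Pi16 reached 3 reads in Fam134bKO only and was not called. Dcn was 0 to 2.77 in WT and 0.830 to 5.25 in Fam134bKO. Pdgfra was 2.67 to 6.46 in WT and 3.34 to 10.4 in Fam134bKO. Smooth muscle markers summed to 9131 to 10668 and 10585 to 16327, mostly Acta2, with Myh11 at 0. The glial list summed to 18.7 to 27.0 and 367 to 598, most of it in Fam134bKO from Slc1a3, while Sox10, Gfap and Sox2 were at 0 in all 8 samples. The adipocyte list summed to 75.7 to 97.1 and 129 to 176, with Lpl and Pparg the members that rose and Adipoq, Plin1, Cfd and Cidec at 0. Neuronal markers summed to 606 to 733 and 391 to 467, with 1 called higher, 1 called lower, and Snap25, Rbfox3 and Dcx at 0. Bone and cartilage markers summed to 438 to 495 and 658 to 1103. Of these 9 markers, 2 reached 3 reads in a WT library and 2 in a Fam134bKO library. Of the 9, 1 was called higher, and Bglap, Alpl, Ibsp and Dlx5 were at 0. Markers of endothelium, leukocytes and epithelium summed to at most 2.0, 25.0 and 11.1 in any sample.

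The same genes were then read in myotubes, with 1 model over all 16 samples and 10767 genes. In it, 9.74% of genes were called higher and 13.7% lower in Fam134bKO myotubes. Fam134bKO myotube replicates 2 and 4 held 1790524 and 1484750 reads on genes, against at least 2686680 in every other library. Myoblast calls below are those of the 8-sample model, 2481 genes, where the 16-sample model called 1697. The part of depth and model in the shared calls was not tested. Of the 1205 genes that rose in myoblasts, 433 also rose in myotubes (35.9%), while 24 fell. The 433 were 43.4% of the 998 genes called higher in myotubes that were also tested in myoblasts. Of the 1276 that fell in myoblasts, 583 also fell in myotubes (45.7%), and 16 rose. The 583 were 44.7% of the 1303 genes called lower in myotubes that were also tested in myoblasts. The genotype effect itself differed between stages in 371 genes by the interaction term, with 1876 at an unadjusted p under 0.05. Interaction values are the change in myotubes minus that in myoblasts. Of the 36 sarcomere genes, 28 fell in myotubes. Myog changed by -6.82 in myoblasts and -0.51 in myotubes (not called in myotubes, interaction 6.32 ± 0.30, limma adjusted p = 1.29e-11), and Mylpf by -7.31 and -1.66 (interaction 5.64 ± 0.29, limma adjusted p = 1.91e-11). In the integrated stress response, 7 of the 45 genes tested in myoblasts rose and 4 fell in myotubes. Asns changed by -0.09 there (interaction -1.59 ± 0.21, limma adjusted p = 7.18e-05) and Trib3 by 0.29 (interaction -2.29 ± 0.23, limma adjusted p = 1.39e-06), and neither was called in myotubes. Ddit3 rose by 1.02 in myotubes, and its difference between stages was not called (interaction -0.78 ± 0.25, limma adjusted p = 0.0973). Mitosis genes, 9 of 92 lower in myoblasts, were lower in 67 in myotubes. These are counts of calls, not a test of a difference between stages, and the interaction is not given for this list. Slc1a3 and Rhox5 rose at both stages, by 6.58 and 6.25 in myotubes, as did Col6a2 (1.96) and Mgst1 (3.06), and H19 fell at both (-2.31 in myotubes).

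**Figure D5:**
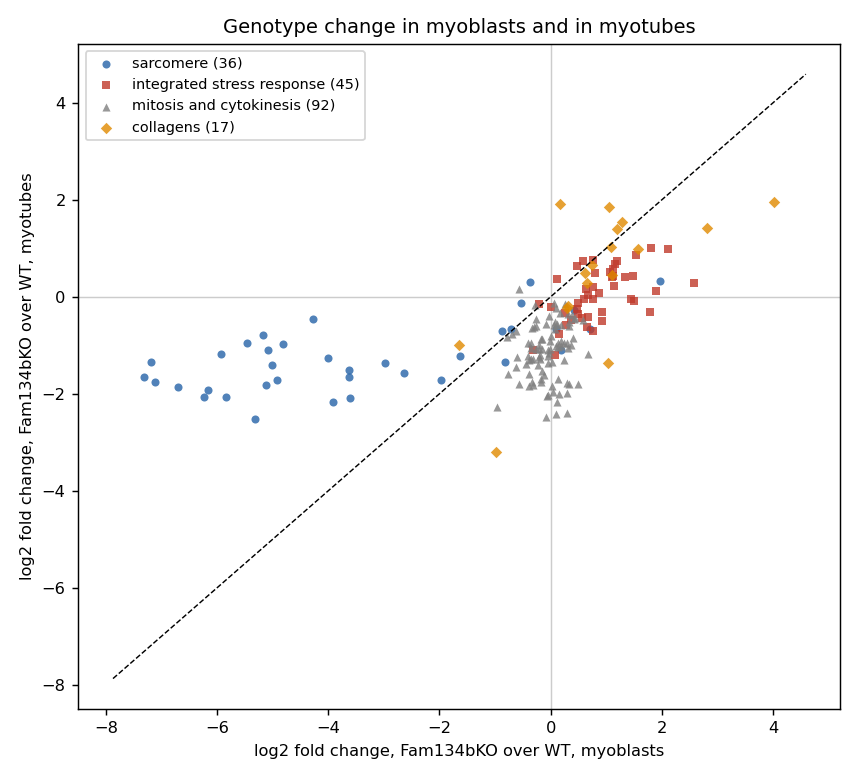
Log2 fold change of Fam134bKO against WT in myoblasts (x axis, 8-sample model) and in myotubes (y axis, 16-sample model) for the tested members of 4 lists, with 1 point per gene, the dashed line marking equal change. The list medians, given as myoblasts then myotubes, are -3.95 and -1.35 for the sarcomere, 0.77 and 0.04 for the integrated stress response, -0.04 and -1.07 for mitosis and 1.03 and 0.67 for collagens.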

How the data were processed

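RNA was measured in 16 C2C12 samples in 4 groups of 4, by single-end sequencing of mRNA libraries, and the groups were taken from the labels. Per the labels and the submitters' processing notes, the authors used bcl2fastq, STAR 2.6.0a, HTSeq and build mm10, and deposited 1 table of normalized counts as log2(value + 1). Reads were trimmed with bbduk. The normalization method and use of strand in counting are not given in the sources used here, so overlapping or antisense genes and near-identical copies are uncertain. Each deposited log2 value was converted back, and 100% of values were whole reads within 0.01 read.

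The log2 values of the 8 myoblast samples were fitted with limma 3.58.1 in R 4.3.3 (moderated test with a mean-variance trend, Benjamini-Hochberg adjustment, threshold 0.05), on genes that reached a normalized count of 10 in 4 or more of 8 samples, without a replicate block. A model over all 16 samples gave myotube and interaction terms. The fit was checked on data with known changes before use.

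The genes, the 47 lists (2588 entries, 7 without a row) and the comparisons were chosen with earlier results of these data known. Named are the targeted gene, the 12 largest changes each way among called, non-overlapping genes with a mean of at least 50, up to 4 called members of each list each way and its 3 of highest mean, detected markers, and genes said to be named after their values were seen. A few genes that this rule names are not reported here. Promoters are RefSeq's. Counting intervals are exact binomial intervals on summed reads. Alternatives covered the pseudocount, filter, scaling, model, sample weights, thresholds and leaving out each library.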

Additional observations from a re-analysis of the deposited data

Results flagged for a closer look

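For the 210 genes named, each group of 4 myoblast samples was examined for a value far from the other 3. Chance gives such a value in about 1 in 20 groups. Groups with 3 reads or fewer in every sample were passed over, so fewer than 420 groups were examined. A value apart was found in 21 groups, a share near that given by chance, and 11 of the 21 were in Fam134bKO replicate 2. Among those below, the values of Jsrp1 and Tnnt3 rest on few reads. Normalized counts in that library, with the range of the other 3 in parentheses, were 26.6 for Aff3 (63.9 to 66.7), 29.9 for Ccne2 (53.8 to 55.1), 206 for Dysf (148 to 153), 90.5 for Hspa4l (125 to 132), 1016 for Id3 (581 to 650.1), 739 for Igfbp4 (479 to 486), 1.66 for Jsrp1 (3.34 to 3.50), 1116 for Rhox5 (813 to 852), 607 for Slc3a2 (359.6 to 399.9), 443 for Vdr (556 to 575) and 266 for Wipi1 (379.6 to 396). In the other Fam134bKO libraries they were 54.7 for Cdh11 in replicate 3 (25.9 to 29.7), 35.6 for Gdf15 in replicate 3 (24.1 to 25.0), 45.5 for Igf2bp2 in replicate 1 (38.2 to 39.2) and 4.34 for Tnnt3 in replicate 3 (0.830 to 0.875). In WT they were 58.8 for Ccnd2 in replicate 2 (48.0 to 48.1), 277 for Ckb in replicate 2 (364 to 372), 161 for Frmpd1 in replicate 1 (108 to 117), 231 for Snai2 in replicate 2 (129 to 146), 656 for Sox11 in replicate 4 (736 to 752) and 10713 for Vim in replicate 2 (13249 to 13597). Fam134bKO replicate 2 also had 12594 genes with a read, against 13222 to 13239 in the other 3.

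The genotype effect differed between myotubes and myoblasts in 63 of the named genes by the interaction term (limma adjusted p from 1.29e-11 to 0.0499). The log2 fold change was more positive in myotubes in 43 genes, by 4.38 for Acta1, 3.81 for Actc1, 2.98 for Atp2a1, 2.07 for Cacng1, 2.06 for Cd34, 0.87 for Celf2, 2.38 for Chrna1, 2.73 for Ckb, 3.50 for Ckm, 2.45 for Cox8b, 4.71 for Dok7, 1.65 for E2f2, 1.49 for Egr3, 3.50 for Frmpd1, 3.24 for Gm7325, 1.31 for H19, 0.97 for Hes6, 2.54 for Igf2, 2.27 for Igfbp5, 2.66 for Jsrp1, 2.40 for Lgr6, 4.67 for Mb, 3.99 for Myh3, 5.64 for Mylpf, 3.38 for Myod1, 6.32 for Myog, 2.98 for Ptgis, 0.94 for Rapsn, 2.07 for Sema6a, 3.21 for Smyd1, 1.41 for Sox11, 1.86 for Spry1, 1.49 for Spry2, 5.84 for Synpo2l, 1.07 for Tcf4, 5.39 for Tmem8c, 5.36 for Tnnc2, 4.84 for Tnni1, 4.25 for Tnnt1, 2.12 for Tnnt2, 4.16 for Tnnt3, 4.75 for Ttn and 2.79 for Wnt7b. It was more negative in 20 genes, by -0.95 for Actg2, -0.77 for Ak1, -1.59 for Asns, -2.24 for Cdsn, -1.50 for Chac1, -2.06 for Col6a2, -1.33 for Dysf, -1.38 for Herpud1, -1.09 for Klf4, -1.78 for Krt14, -1.36 for Ldb3, -1.76 for Ly6a, -1.54 for Mcm5, -1.14 for Pycr1, -2.67 for Reep6, -1.30 for Spc24, -1.28 for Tpm2, -2.29 for Trib3, -2.04 for Vdr and -1.88 for Wnt4. For genes with few reads in Fam134bKO myoblasts, these values depend on the pseudocount.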

How the results depend on the processing

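The 2481 calls became 1441 at an adjusted p under 0.01 (690 higher, 751 lower) and 961 where the log2 fold change had also to be 1 or more in size (459 and 502), and 782 genes were higher in 1 model over all 16 samples. In myotubes, 2521 calls became 1349 and 1379 at these thresholds, and 141 of 371 interactions passed 0.01. At a size of 1 or more, 302 of 557 listed genes, 17 of 31 genes of the integrated stress response and 14 of 22 redox genes stayed called. Without a filter, 47 sarcomere genes were lower in place of 30. Of collagens, 5 were higher at 0.01 and 6 to 12 with 1 library left out. Other counts of calls over these groups stayed within 1.5 times, from 1913 to 3085 genes with 1 library left out. Calls higher were 48.6% of calls, 55.8% with scaling to total reads, 49.2% with median-ratio scaling and 51.3% with quantile normalization. On the recovered whole reads, limma with voom weights called 2444 genes (1357 higher, 1087 lower).

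Deviations from the group mean correlated at -0.00262 to 0.184 between same-numbered samples and at -0.26 to 0.25 between differently numbered ones. Of the 8 samples, 4 correlated best with their own number. These values do not settle whether the replicate numbers pair the samples. With a replicate block 2807 genes were called (1360 higher, 1447 lower), 2445 of them among the 2481, and Fam134b changed by -2.86.

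None of the 206 named genes with a fit reversed while called. Of 181 called, 17 lost the call without 1 library, at adjusted p up to 0.0524 to 0.136 by limma: Atl3, Atp6v0a1, Atp6v1b2, Col1a1, Col3a1, Fam134a, Gabarap, Hspa9, Ldb3, Manf, Map1lc3a, P4hb, Pax3, Pdia5, Sparc, Tcf4 and Vim. Another fit ended 11 calls, Hsp90aa1 and Myf5 among them, in the model over all 16 samples. Genes under 10 normalized counts were not tested, and 1 knockout line limits what the comparison can show.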
